A study of Macaca mulatta with 95 samples.

Results

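DPPA2, DPPA3 and DPPA5 are the 3 developmental pluripotency-associated (DPPA) genes read here, taken by symbol from an expression table of 16049 genes in 95 single cells of rhesus macaque embryos. DPPA5 and DPPA2 were high in the epiblast-like cells of late and hatched blastocysts and far lower in the 17 cells that were trophectoderm-like or hypoblast-like at 6 clusters, where DPPA5 never passed 8.98 RPKM (reads per kilobase of gene per 1e6 reads) and DPPA2 passed 10 in 3 cells. DPPA2 was not confined to epiblast-like cells, and outer early blastocyst cells ran from 195.5 to 1173 RPKM. DPPA3 was high in the 4 cells that were hypoblast-like at 6 clusters. It never passed 408.6 RPKM in cells whose library title starts with A, B or D, and never lay below 617.0 in those with H. The labels do not explain these letters, and the share of all genes that part them as fully is not given here. All 3 symbols are protein-coding genes of the RefSeq macaque annotation, DPPA2 on chromosome 2, DPPA3 on chromosome 11 and DPPA5 on chromosome 4. DPPA4, which lies next to DPPA2, is not analysed here.

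The 3 genes share a name and not a protein family. DPPA2 is a nuclear protein with a SAP domain that works with DPPA4 and, in the mouse, keeps bivalent promoters open and helps to switch on genes of the first cleavages. DPPA3, also called STELLA or PGC7, is a maternal factor that in the mouse binds UHRF1 and so limits maintenance DNA methylation by DNMT1 in the oocyte and zygote. DPPA5, also called ESG1, is a KH-domain RNA-binding protein of pluripotent cells, related to KHDC3L, OOEP and KHDC1L, which are known from the oocyte.

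The embryos were made by fertilization of stimulated oocytes in culture, and no group carried a genetic change or a drug treatment. Single cells were taken at 7 stages, 5 at the 16-cell stage (about day 3), 10 from early morulae (day 4), 10 from late morulae (day 4.5), 16 from early blastocysts (day 5), 17 from middle blastocysts (day 5.5), 19 from late blastocysts (day 6) and 18 from hatched blastocysts (day 7). A membrane dye on the intact embryo marked outer cells, and the late and hatched blastocyst cells all carry the inner label. No label ties a cell to an embryo, an animal or a day of culture, so cells are not replicates of a stage. Values are therefore described as the lowest, median and highest cell, means with the SD over cells, and ratios, with no p-value.

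Each title also starts with a letter, A, B, D, G or H, that the labels do not explain. The letter was tied to the stage in the outer cells and in the early stages, with B at the 16-cell stage, H in early morulae, D in late morulae, A in outer early blastocyst cells and B in outer middle blastocyst cells. Several letters met only among inner blastocyst cells. The title and the source name disagreed for 9 cells titled late blastocyst, 5 with G and 4 with H, whose source names read hatched blastocyst, and the title was used. The cells held 2358 to 7379 genes at 1 RPKM or more, with a median of 3279 in letter A and 6034 in letter H. Relative sequencing depth, read back from the step of a single read, ran from 0.212 to 1.49, with its lowest stage median, 0.527, in late morulae. Markers of cells that could contaminate an embryo were low: all 4 sperm markers were at 0 in every cell, and the 6 cumulus cell markers summed to at most 22.5 RPKM, with FSHR and FOXL2 at 0 throughout.

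A single read of DPPA2 was worth 0.0297 to 0.209 RPKM, of DPPA3 0.0374 to 0.263 and of DPPA5 0.0395 to 0.278. The step was set from the lowest values of each gene. Divided by it, the values of DPPA2 in 94 cells, of DPPA3 in 94 cells and of DPPA5 in 93 cells came out as whole reads. The tolerance was 0.01 of a read plus a part that grew with the count, so it was loose for the largest counts. The deepest values were 24454 reads of DPPA2, 62692 of DPPA3 and 61398 of DPPA5, so the high levels rest on many reads. Each cell listed at 0 allows, at 3 reads, a level of up to 0.176 RPKM for DPPA2, 0.160 for DPPA3 and 0.151 or 0.233 for DPPA5. These limits cover counting error only, and the cDNA was amplified by PCR without molecular identifiers. Human DPPA3 and DPPA5 have processed pseudogenes, and how reads shared with near-identical macaque copies were counted was not stated, so the counts of these genes carry that uncertainty.

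**Figure D1:**
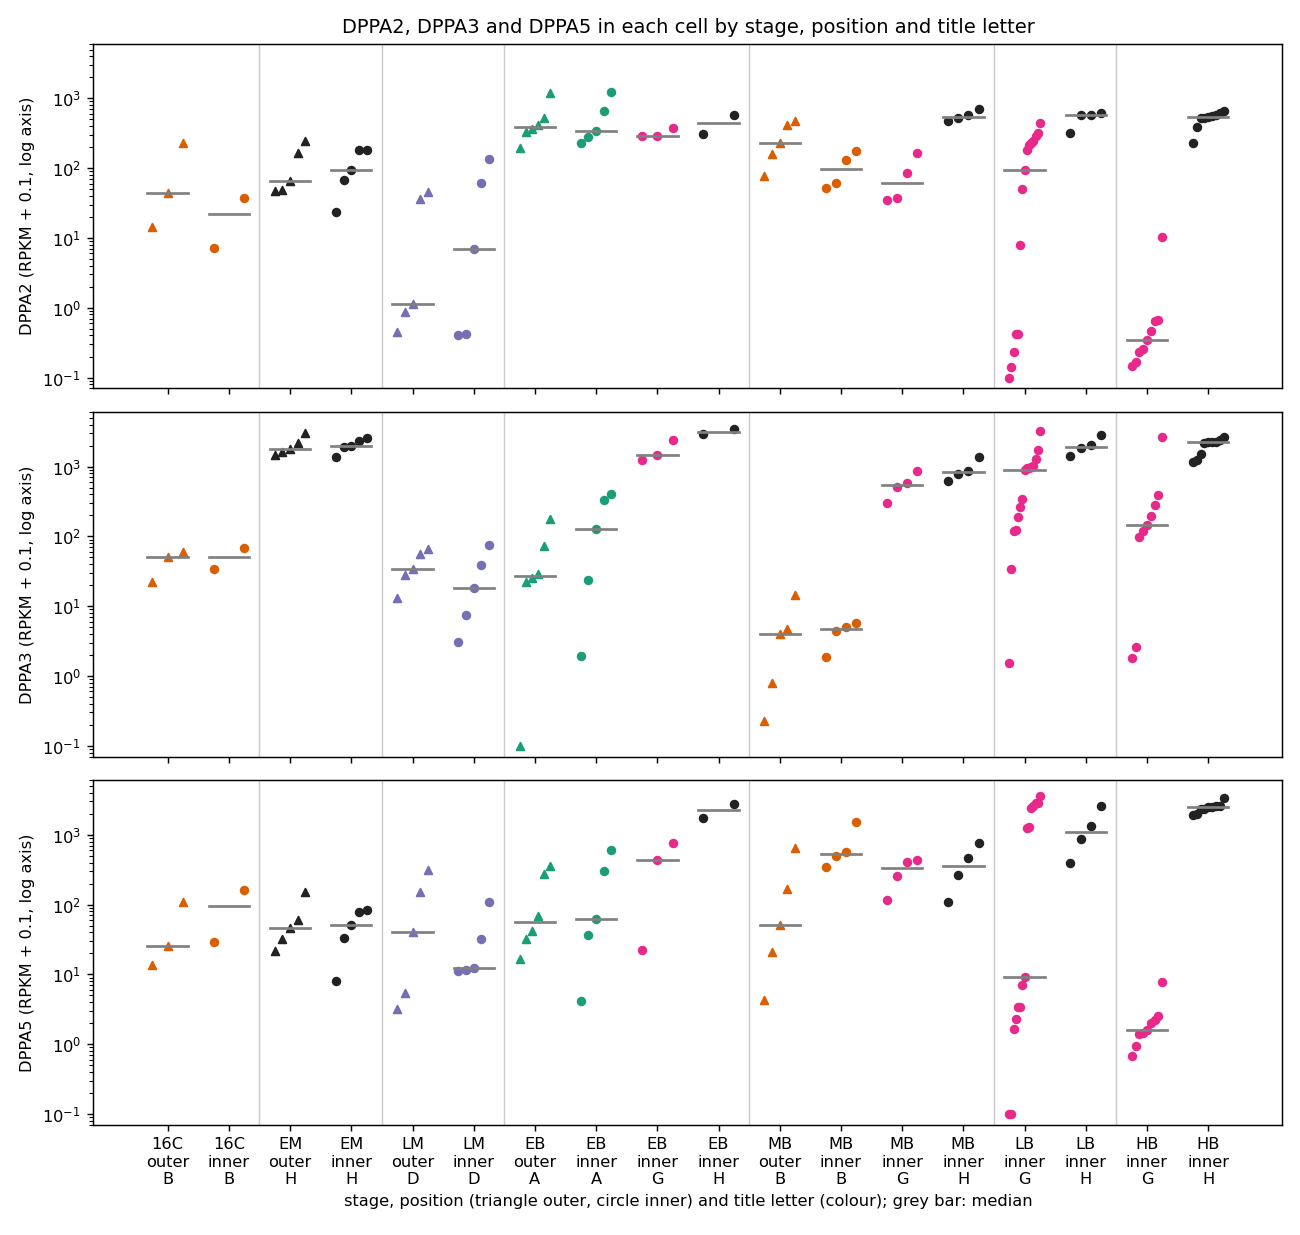
Level of DPPA2, DPPA3 and DPPA5 in each of the 95 cells (RPKM + 0.1, log axis), by stage (16C, 16-cell; EM and LM, early and late morula; EB, MB, LB and HB, early, middle, late and hatched blastocyst), position and title letter. Each point is a cell, triangles are outer and circles inner cells, and the grey bar is the median of the group. All 29 cells with letter H sit at 617 RPKM or more of DPPA3. The share of all genes that part H from A, B and D is not given here. The hatched blastocyst cells split by letter for DPPA2 and DPPA5, with H wholly above G, as for 1.46% of measured genes.

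DPPA2, the chromatin factor, was present before the blastocyst at modest and uneven levels. At the 16-cell stage the 3 outer cells read 14.3, 44.2 and 230.4 RPKM and the 2 inner cells 7.14 and 37.0 RPKM. In early morulae the 5 outer cells ranged from 46.4 to 246.3 RPKM with a median of 64.9, and the 5 inner cells from 23.5 to 184.1 with a median of 93.6. Late morula cells reached far lower, with outer cells at 0.343, 0.766, 1.01, 35.7 and 44.7 RPKM and inner cells at 0.304, 0.323, 6.92, 60.4 and 133.2 RPKM. Of these 10 cells, 4 lay below 1 RPKM and 4 above 35.

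In the early blastocyst DPPA2 was on in every cell. The 6 outer cells ran from 195.5 to 1173 RPKM with a median of 390.6, and the 10 inner cells from 231.0 to 1223 with a median of 323.6. All 16 cells of this stage lay above all 10 late morula cells, which carry another letter, D. In inner cells alone, 0.863% of measured genes lay wholly above in the same way. The 3 letters of the inner cells overlapped, at 231.0 to 1223 for A, 288.6 to 369.4 for G and 304.7 to 583.8 for H. In the middle blastocyst the inner cells split, with letter H at 474.6 to 699.5 RPKM, letter B at 52.0 to 172.9 and letter G at 34.6 to 167.0. Outer middle blastocyst cells, all letter B, ran from 76.3 to 471.4 RPKM and overlapped the inner cells of letters B and G.

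The late and hatched stages gave the widest spread of DPPA2. Late blastocyst cells with letter G ran from 0 to 436.0 RPKM with a median of 93.5, and those with letter H read 318.6 to 606.5. Hatched blastocyst cells with letter H ran from 225.6 to 662.0 RPKM with a median of 536.1, while the 9 with letter G ran from 0.0484 to 10.1 with a median of 0.246. Without the 5 cells of conflicting labels the 10 late cells of letter G ran from 0.0415 to 436.0 RPKM with a median of 221.1, and those 5 from 0 to 93.5. The low hatched group corresponds to 1 to 231 reads a cell, and 8 of its 9 cells were below 1 RPKM. Ordered by median over the 18 groups of stage, position and letter, DPPA2 was highest in late, middle and hatched blastocyst cells of letter H and lowest in hatched cells of letter G, and each group overlapped the next one in the order.

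DPPA3, the partner of UHRF1, did not follow the stage alone. The 5 16-cell blastomeres (letter B) read 22.0 to 66.9 RPKM and the 10 late morula cells (letter D) 2.94 to 76.1, while the 10 early morula cells (letter H), the stage between them, read 1380 to 2997. In the early blastocyst the letter A cells read 0 to 176.6 RPKM outside and 1.81 to 408.6 inside, the 3 letter G cells 1244, 1445 and 2384, and the 2 letter H cells 2889 and 3394. The 9 middle blastocyst cells with letter B read 0.127 to 14.4 RPKM, the stage and letter with the lowest median DPPA3, against 297.9 to 874.5 for the 4 inner cells with letter G and 617.0 to 1353 for the 4 with letter H. Letters A, B and D therefore never passed 408.6 RPKM in 35 cells, and letter H never fell below 617.0 in 29. The share of all genes that part these letters as fully is not given here. In early blastocyst inner cells, 20.7% of measured genes lay wholly above in H against A. In middle blastocyst inner cells, 12.8% did so in H against B.

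Letter G spanned both ends in the late and hatched blastocyst. Its 15 late blastocyst cells ran from 1.45 to 3226 RPKM of DPPA3 with a median of 902.7, and its 9 hatched cells from 1.71 to 2633 with a median of 143.5. The 4 late blastocyst cells with letter H read 1409 to 2849 RPKM, and the 9 hatched cells with letter H 1151 to 2620 with a median of 2255. In the order of medians the early blastocyst cells of letter H came first and did not overlap the next group, hatched cells of letter H. Every other pair of neighbours in the order overlapped.

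DPPA5, the KH-domain protein, stayed far below its later peak before the blastocyst. The 25 cells of the 16-cell, early morula and late morula stages held 3.04 to 317.0 RPKM, with group medians of 12.4 to 95.5. In the early blastocyst the 6 outer cells ran from 16.5 to 351.3 RPKM and the 5 inner letter A cells from 4.00 to 598.6. The 3 inner letter G cells read 22.1, 435.4 and 755.0 RPKM and the 2 inner letter H cells 1761 and 2757, above all other cells of the stage.

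Middle blastocyst inner cells held DPPA5 at 346.8 to 1547 RPKM in letter B, 116.2 to 431.9 in letter G and 109.3 to 750.8 in letter H, so all 12 were above 100 RPKM. The 5 outer cells of the stage read 4.21, 20.6, 51.7, 166.5 and 640.1 RPKM. In the late blastocyst, letter H cells read 393.8 to 2542 RPKM, and letter G cells fell into 7 cells at 1267 to 3627 and 8 cells at 0 to 8.98, with none between. Of those 8, 5 are the cells of conflicting labels. The hatched cells left no overlap either, at 1933 to 3359 RPKM (median 2472) in letter H and 0.567 to 7.57 (median 1.49) in letter G. The group medians were highest in hatched cells of letter H and lowest in hatched cells of letter G, and every pair of neighbours in the order overlapped.

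To relate these levels to cell type, the 70 blastocyst cells were clustered on 1000 variable genes that did not include the 3 DPPA genes. Of 5 clusters, a cluster of 16 cells (7 with letter G, late, and 9 with letter H, hatched) was epiblast-like by 6 of 8 measured markers, and a cluster of 8 hatched cells of letter G was trophectoderm-like by 9 of 13. The cluster of 8 also had 6 of 12 measured hypoblast markers above the other cells. Neither cluster had a marker of its own name among its 10 genes of largest fold. The other clusters, of 20, 9 and 17 cells, were left unnamed. The cluster of 9 cells had 11 of 13 hypoblast markers above the other cells, but it divided at 6 clusters into 4 hypoblast-like cells, with 13 hypoblast markers above the other cells, and 5 further trophectoderm-like cells with 9 of 13. Those 5 also had 5 of 12 measured hypoblast markers above the other cells. The names of these 9 cells thus depend on the setting: with 2000 variable genes all 9 were called hypoblast-like, and at 4 clusters they joined the 8 trophectoderm-like cells. The naming rule was chosen after the data had been seen, and clusters are described here with no test.

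In the 16 epiblast-like cells DPPA5 averaged 2436 ± 619 RPKM (SD over cells) and ran from 1267 to 3627. In the 13 trophectoderm-like cells (at 6 clusters) it ran from 0 to 8.98 RPKM, and in the 4 hypoblast-like cells from 1.54 to 3.36. The 5 late blastocyst cells of the trophectoderm-like group are those with letter G whose stage labels disagree, and without them the 8 hatched trophectoderm-like cells read 0.567 to 7.57 RPKM. No cell of the last 2 cell types reached 10 RPKM, and no epiblast-like cell was below 1000. The share of all genes that part these cell types as fully is not given here.

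DPPA2 divided the same cells in a similar way. It averaged 407.9 ± 164 RPKM in the epiblast-like cells, with a range of 181.0 to 662.0, and it read 0.0415, 0.131, 0.358 and 49.3 RPKM in the hypoblast-like cells. Of the 13 trophectoderm-like cells, 11 were below 8 RPKM, and the exceptions were a late blastocyst cell, G-16, at 93.5 and a hatched cell, G-15, at 10.1. Within the epiblast-like cells the late blastocyst cells of letter G averaged 274.0 ± 85.6 RPKM and the hatched cells of letter H 511.9 ± 132. Stage and letter cannot be told apart in that difference.

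DPPA3 parted from the other 2 genes in the hypoblast-like cells. These 4 cells read 957.6, 1279, 1713 and 2633 RPKM of DPPA3, within the range of the epiblast-like cells, 191.0 to 3226, and above all 13 trophectoderm-like cells, 1.45 to 902.7. The gap was narrow, between late blastocyst cell G-04 at 902.7 RPKM and G-11 at 957.6. The share of all genes without overlap there is not given here. The 8 trophectoderm-like cells of the hatched blastocyst averaged 153.8 ± 133 RPKM and the 13 at 6 clusters 185.6 ± 243. With 2000 variable genes the 9 cells then called hypoblast-like averaged 862.8 ± 906 RPKM of DPPA3, and at 4 clusters the 17 trophectoderm-like cells averaged 529.2 ± 742, so the contrast between these cell types in DPPA3 rests on the division at 6 clusters. Hatched cell G-14, the single hypoblast-like cell of its stage, carried 2633 RPKM of DPPA3 beside 0.358 of DPPA2 and 2.14 of DPPA5. Among the markers used for the names, GATA4 was 55.7 to 242.4 RPKM in the hypoblast-like cells and at most 2.07 in the epiblast-like. GATA2 was 140.2 to 936.2 in the trophectoderm-like cells, and NANOG passed 100 RPKM in 15 of the 16 epiblast-like cells. These markers helped to name the clusters, so their division of the cells is no separate result.

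Set against all other blastocyst cells, DPPA5 and DPPA3 were past 2-fold higher in the epiblast-like cluster (log2 ratios of 2.76 and 1.24), where 16.2% of measured genes were, and DPPA2 was not (0.63). DPPA3 was at 0.92 there under median-of-ratios scaling, which ends its call. A log2 ratio here is that of mean RPKM + 1, and a gene is measured at a mean of 5 RPKM on either side. In the trophectoderm-like cluster of 8 cells all 3 were past 2-fold lower (DPPA2 -7.07, DPPA3 -2.63 and DPPA5 -8.21, against 22.4% of measured genes). In the unnamed cluster of 9 cells DPPA2 (-4.24) and DPPA5 (-7.84) were lower and DPPA3 was level (0.00), beside 28.4% of genes lower. In the cluster of 20 cells, which holds every blastocyst cell of letters A and B, DPPA3 (-4.22) and DPPA5 (-1.90) were lower, beside 46.6%, and DPPA5 was at 0.19 under median-of-ratios scaling and at -0.40 by the mean of log2 values. In the cluster of 17 cells DPPA3 was higher (1.17, but 0.84 under median-of-ratios scaling and 0.98 with equal totals), beside 13.1%.

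**Figure D2:**
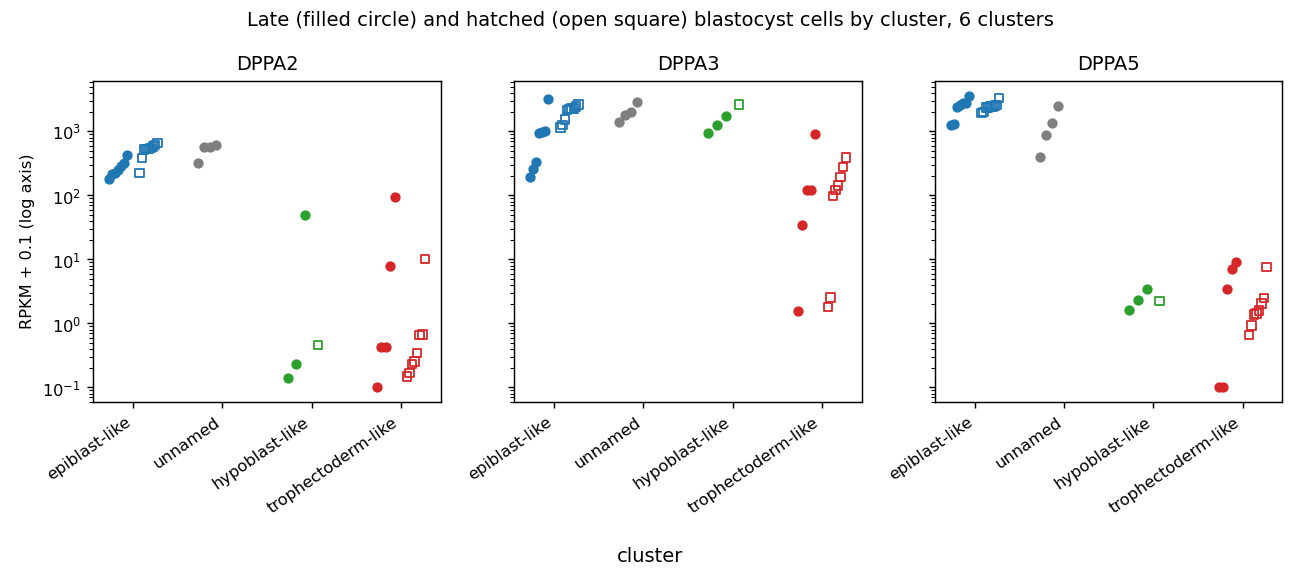
Level of the 3 genes (RPKM + 0.1, log axis) in the 37 late (filled circles) and hatched (open squares) blastocyst cells, by cluster at 6 clusters. DPPA5 separates the epiblast-like cells (1267 to 3627 RPKM) from trophectoderm-like and hypoblast-like cells (0 to 8.98 RPKM), and DPPA3 is at 957.6 RPKM or more in all 4 hypoblast-like cells.

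**Figure D3:**
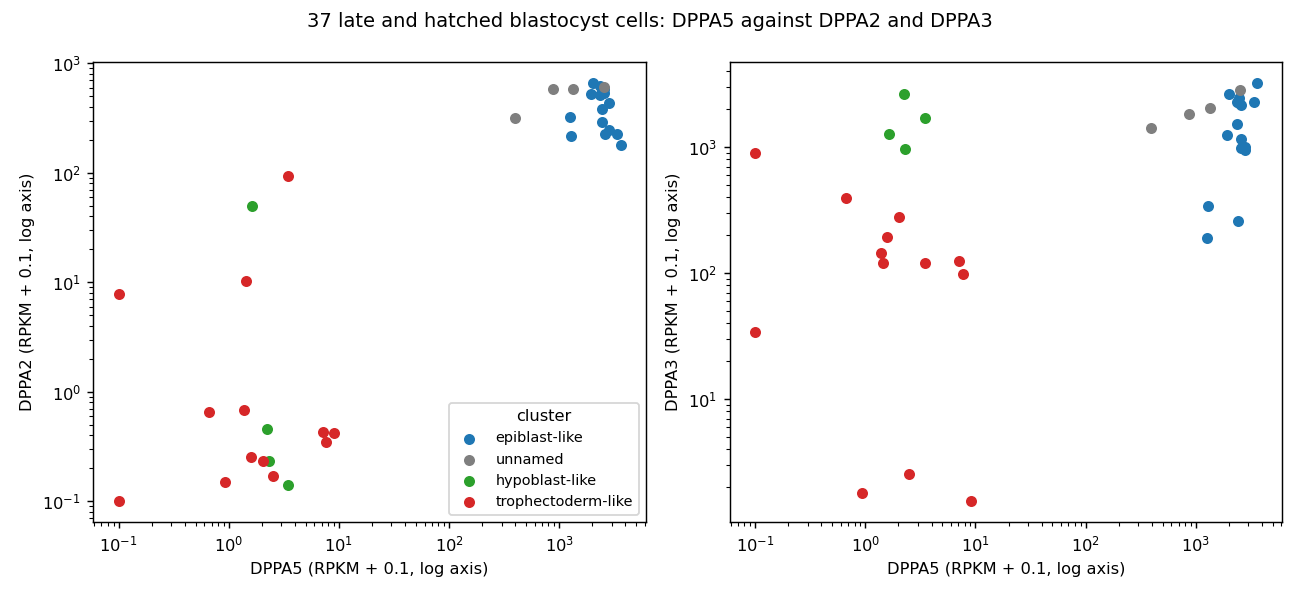
DPPA5 against DPPA2 (left) and against DPPA3 (right) in each late and hatched blastocyst cell (RPKM + 0.1, log axes), coloured by cluster at 6 clusters. The 16 epiblast-like cells are high in both DPPA2 and DPPA5, late cells G-16 and G-17 hold 93.5 and 49.3 RPKM of DPPA2 with little DPPA5, and the 4 hypoblast-like cells combine low DPPA5 with high DPPA3.

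Outer and inner cells could be compared within a stage and a letter at 5 stages, and the members overlapped between the positions at each of them. In the middle blastocyst (letter B), mean DPPA5 was 176.6 RPKM outside and 738.5 inside (log2 ratio -2.06, with 24.7% of genes at least 2-fold lower), and mean DPPA2 was 270.2 outside and 104.2 inside (1.37, with 36.3% of genes higher). DPPA5 in that comparison read -3.58 without outer cell B-03, the 640.1 RPKM cell, and -1.40 without inner cell B-02. Trophectoderm markers were present in both positions, with a summed level over 14 markers of 28574 to 43082 RPKM inside and 7744 to 66253 outside. CGA was at 0 in both. Of the 14 markers, 7 were at 5 RPKM or more inside and 12 outside. The part of these markers in the result was not tested. In the early blastocyst (letter A), DPPA3 was lower outside (54.1 against 178.0 RPKM, -1.70, or -2.55 without outer cell A-08, with 32.7% of genes lower) and the others were within 2-fold, DPPA5 at -0.61 and at 0.36 without inner cell A-05.

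At the earlier stages single cells decided the comparison. At the 16-cell stage DPPA2 was higher outside (2.08, with 24% of genes higher), and the ratio was 0.39 without outer cell B-09, 3.58 without inner cell B-01, 1.36 without inner cell B-02 and 0.97 by medians. DPPA5 at that stage was at -0.95 and turned to 0.74 without inner cell B-02. In early morulae none of the 3 was past 2-fold (0.05, -0.02 and 0.30), where 25.3% of measured genes were in either direction. In late morulae DPPA2 was lower outside (-1.24, with 26.9% of genes lower) and DPPA5 higher (1.55, with 31.2% higher). The DPPA2 ratio was -0.04 without inner cell D-07, -1.98 without outer cell D-05, -0.94 to -0.95 without outer cell D-01, D-03 or D-06, -0.92 with a pseudocount of 10 and -0.76 by the mean of log2 values. The DPPA5 ratio was 0.52 without outer cell D-03, 2.57 without inner cell D-08 and 0.57 by the mean of log2 values.

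Stages could be followed within a letter for H, G and B. In inner cells of letter H all 3 genes were higher in the early blastocyst than in the early morula with no overlap of cells, by log2 ratios of 2.00 for DPPA2, 0.63 for DPPA3 and 5.45 for DPPA5. For all genes measured there, every cell lay above every cell of the other stage in 9.72%, and 21.4% were at least 2-fold higher, a size that DPPA2 and DPPA5 reached. From early to middle blastocyst DPPA3 (-1.80) and DPPA5 (-2.51) were lower and DPPA2 within 2-fold (0.35, or -0.046 without early cell H-05), with 27.6% of genes lower. From middle to late blastocyst DPPA3 (1.17, or 0.96 without late cell H-03) and DPPA5 (1.70) were higher, with 34.8% of genes higher, and under median-of-ratios scaling they were at 0.26 and 0.85. From late to hatched blastocyst none was past 2-fold (-0.03, -0.03 and 0.93), beside 40.9% of genes in either direction. Letter H has 2 early and 4 late blastocyst cells, and the 4 late cells are among those with conflicting labels.

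In inner cells of letter G, DPPA2 (-1.96, or -2.59 without middle blastocyst cell G-10) and DPPA3 (-1.58) were lower in the middle than in the early blastocyst, beside 24.9% of genes, and DPPA5 was at -0.42 (0.40 without early cell G-11). DPPA5 was higher in the late than in the middle blastocyst by the ratio of means (1.89, beside 26% of genes), but lower by the mean of log2 values (-1.97) and by the median (-5.05), the late cells forming a high and a low set. From late to hatched blastocyst DPPA2 (-5.88, or -6.78 without hatched cell G-15) and DPPA5 (-8.47) were lower, beside 16.2% of genes, and DPPA3 was at -0.91 (-2.38 without hatched cell G-14). Without the 9 cells of conflicting labels the 3 ratios were -6.39, -9.05 and -1.34, and the step from middle to late blastocyst gave 2.48 for DPPA5 and 1.28 for DPPA2. Of the 7199 genes measured in late and hatched cells, 0.0139% had a lower hatched against late ratio than DPPA5. The cell types sampled differed as well: 7 of 15 late blastocyst cells of letter G were epiblast-like and none of the 9 hatched cells was.

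In letter B the middle blastocyst could be set against the 16-cell stage. Inner cells of the later stage were higher in DPPA2 (2.19) and DPPA5 (2.94) and lower in DPPA3 (-3.31), each with no overlap between 4 and 2 cells. Of all genes measured there 25.8% were 2-fold higher and 46.3% lower, and 11.7% lay wholly above and 32.2% wholly below. These ratios moved with single cells, DPPA2 to 3.69 and 1.47 without 16-cell inner B-01 and B-02, and DPPA5 to 4.63 without B-02, 2.18 without B-01 and 2.28 without middle blastocyst inner B-02. In outer cells DPPA2 (1.48) and DPPA5 (1.83) were higher, beside 29% of genes, and DPPA3 (-2.99, or -3.78 without middle blastocyst outer B-06) was lower, beside 40.3%, and without overlap, beside 20.8%. Under median-of-ratios scaling this DPPA3 ratio was -0.67, which ends the call. The outer DPPA2 ratio was 0.97 without 16-cell cell B-01 and 3.16 without B-09, and that of DPPA5 0.31 without middle blastocyst cell B-03, 3.11 without 16-cell cell B-09, 0.73 by the mean of log2 values and 0.985 by medians.

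With all letters pooled, successive stages of inner cells mix stage with letter. From the 16-cell stage to early morula DPPA2 (2.27, and 3.77 or 1.55 without 16-cell cell B-01 or B-02) and DPPA3 (5.30) were higher, beside 47.1% of genes, and DPPA5 was at -0.90 (0.79 without 16-cell cell B-02). From early to late morula DPPA3 was lower (-6.09, or -6.82 without late morula cell D-08), beside 51.6% of genes, and DPPA2 was at -1.43 (-2.63 without D-07), which turned to 1.17 under median-of-ratios scaling. From late morula to early blastocyst all 3 were higher (3.48, 5.36 and 4.24, beside 48.3% of genes), and the values were 4.68 without D-07 for DPPA2, 6.10 without D-08 for DPPA3, and 5.26 without D-08 or 3.63 without early blastocyst cell H-05 for DPPA5. From early to middle blastocyst DPPA3 was lower (-1.32, or -0.61 by medians, beside 18.2%). From middle to late blastocyst DPPA3 (1.11) and DPPA5 (1.28) were higher, beside 25.1%, and DPPA3 was at 0.82 by medians and between 0.94 and 0.99 without any single cell of middle blastocyst B-02, B-03, B-05 and B-06 or late blastocyst G-02 and H-03. The DPPA5 ratio of that step was -1.62 by the mean of log2 values and 0.54 under median-of-ratios scaling. From late to hatched blastocyst none was past 2-fold, beside 28.4% of genes in either direction.

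Letters could be compared within a stage among inner cells, at fixed position and at the stage of the title. In the early blastocyst DPPA3 was higher in G than in A (3.24) and in H than in A (4.13), with no overlap of cells in either. Trophectoderm marker sums moved with the letter, at 2991 to 14715 RPKM in A, 1290 to 2222 in G and 289.6 to 559.2 in H. Of the 14 markers, with CGA at 0 in all, 9 were at 5 RPKM or more in A, 10 in G and 7 in H. The part of these markers in the DPPA3 difference was not tested. In the first comparison 44.4% of genes were 2-fold higher and 11.5% lay wholly above, and in the second 41.8% and 20.7%. DPPA5 was also higher in H than in A (3.48, or 4.46 without A-05), with no overlap. In G against A it was at 1.00, a value that turned to -0.78 under median-of-ratios scaling and ran from 0.18 (without G-11) to 1.98 (without A-05), with 0.69 to 0.95 without A-07, A-08, A-10 or G-18. Between H and G, DPPA5 was 2.48 higher (3.30 without G-11) and DPPA3 0.89 higher, both with no overlap, as for 14.7% of genes, while 26.9% were 2-fold higher. DPPA2 was within 2-fold in these 3 comparisons (-0.79, -0.31 and 0.49), and the last turned to -0.055 without H-03 and the second to 0.22 without A-03 or 0.088 without H-05.

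In the middle blastocyst DPPA3 was higher in G (6.77) and H (7.45) than in B with no overlap. Trophectoderm marker sums were 28574 to 43082 RPKM in the B cells, 833.1 to 2745 in G and 1142 to 4128 in H. The markers at 5 RPKM or more numbered 7 in B, 6 in G and 9 in H. The part of these markers in this difference was not tested. The background was wide, with 55.1% of genes 2-fold higher in G than in B and 50.6% in H than in B, and 22% and 12.8% wholly above. Of measured genes, 0.947% had a larger ratio than DPPA3 in G against B and 0.351% in H against B. DPPA5 was lower in G than in B (-1.29, or -0.63 without B-02 and -0.68 by medians), where 27% of genes were lower. DPPA5 was at 0.39 in H against G (-0.12 without H-03). DPPA2 was higher in H than in B (2.43, but 0.93 under median-of-ratios scaling) and than in G (2.79, or 3.42 without G-10), without overlap in either. Between H and G, 25.6% of genes were 2-fold higher and 3.25% wholly above. The middle blastocyst G cells had hypoblast marker sums of 574.6 to 4838 RPKM against 23.1 to 122.5 in H over 16 markers, with GATA4, SOX17, PDGFRA and FOXA2 at 0 in H, and mean NANOG of 1.41 against 75.1 RPKM. The part of these cell type markers in the DPPA2 difference was not tested.

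In the late blastocyst DPPA2 (1.91) and DPPA3 (1.33) were higher in H than in G, beside 27.5% of genes, but under median-of-ratios scaling they were at 0.67 and 0.23, which ends both calls. DPPA5 was at 0.20 by means and 6.80 by medians, the 15 G cells forming a high set of 7 and a low set of 8. All late H cells, and some of the late G cells, have conflicting stage labels. The cell types differed too: the 4 H cells are in the unnamed cluster of 17 cells. Of the G cells 7 are epiblast-like and 8 are in the unnamed cluster of 9. The part of label and cell type in these ratios was not tested. In the hatched blastocyst all 3 were higher in H, DPPA2 by 7.76 (8.66 without G-15), DPPA3 by 2.21 (3.69 without G-14) and DPPA5 by 9.60. With the 9 cells of conflicting labels counted as hatched these were 5.82, 2.47 and 9.12. DPPA2 and DPPA5 left no overlap between 9 and 9 cells, as did 1.46% of measured genes, and 20.9% were 2-fold higher. Of 7459 genes measured, 0.0268% had a larger ratio than DPPA5 and 0.0670% a larger one than DPPA2. Here the letters are also cell types, since the 9 H cells are epiblast-like and the G cells are 8 trophectoderm-like cells and 1 hypoblast-like cell, so letter and cell type cannot be told apart.

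**Figure D4:**
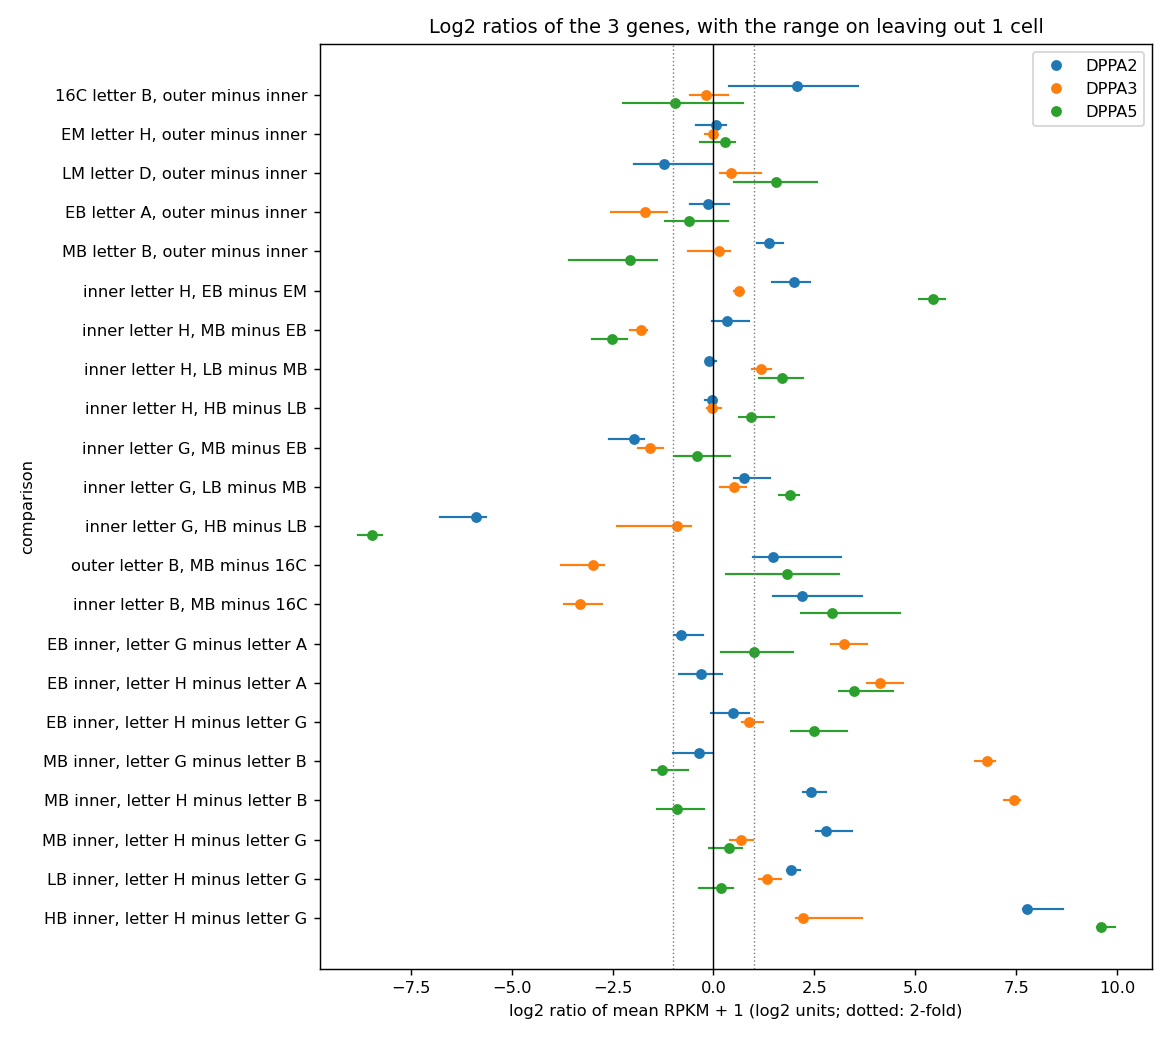
Log2 ratio of mean RPKM + 1 for each gene (points, coloured by gene) in the comparisons of position, of stages within a letter and of letters within a stage, with the range over leaving out 1 cell at a time (lines) and 2-fold marked by dotted lines. DPPA3 reaches 6.77 and 7.45 between letters of the middle blastocyst, and DPPA5 reaches 9.60 between letters of the hatched blastocyst.

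The genes whose levels ran most like each member over the 95 cells differed between the 3. For DPPA5, of 7105 genes at 10 RPKM or more in at least 10 cells, the highest Pearson correlation of log2(RPKM + 1) was with KHDC3L (r = 0.80), followed by the growth factor binding protein IGFBP6 (0.75), the interferon-induced membrane protein IFITM1 (0.75), the ETS factor ETV4 (0.70) and the chemokine CXCL12 (0.69). For DPPA2 it was the membrane protein STOM (0.78), then IFITM1 (0.71), IGFBP6 (0.70), DPPA5 (0.68) and NLRP7 (0.63), a gene of the oocyte. For DPPA3 it was RPL36AL (0.80), the gap junction gene GJA1 (0.78), RPS3A (0.77), the proteasome activator PSME4 (0.77) and RPS27A (0.77). These correlations are across cells that share stage, letter and depth, and are a description. After the mean of each stage, position and letter group was removed, the top gene was POU5F1 for DPPA2 (0.64) and for DPPA5 (0.75), and the KH-domain gene KHDC1L for DPPA3 (0.66). The late blastocyst group of letter G still mixes epiblast-like with other cells.

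Between members, DPPA2 and DPPA5 correlated at r = 0.68, DPPA3 and DPPA5 at 0.33 and DPPA2 and DPPA3 at 0.24. In the 25 cells before the blastocyst DPPA2 and DPPA5 were at 0.02 and DPPA2 and DPPA3 at 0.53, and in the 70 blastocyst cells these were 0.75 and 0.17. Within the 15 late cells of letter G, 7 epiblast-like and 8 others, DPPA2 and DPPA5 were at 0.82. They were at -0.17 in the 9 hatched cells of letter G, and at -0.77 in the 9 of letter H (Spearman's rho -0.30). Spearman's rho ordered the pairs alike over the 95 cells, at 0.67, 0.39 and 0.31, and over the 70 blastocyst cells, at 0.59, 0.51 and 0.32.

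Of the genes just named, 3 encode ribosomal proteins, and their levels by letter stand beside those of DPPA3. They were picked for their correlation with DPPA3 over these same cells, so a like split by letter is no separate result. The share of all genes that split by letter is not given here. RPS3A, of the small subunit, read 0.898 to 413.6 RPKM in the 35 cells of letters A, B and D and 1090 to 7068 in the 60 cells of G and H, with no overlap. RPL36AL read 0.244 to 283.3 and 269.4 to 3825 RPKM in the same sets, with a small overlap, and RPS27A 5.01 to 1337 and 1186 to 10838, also overlapping. DPPA3 read 0 to 408.6 and 1.45 to 3394 RPKM, a wide overlap. The 60 cells of G and H include the low DPPA3 values of trophectoderm-like cells. What separates the letters is not given in the sources used here, and its part in the DPPA3 differences between letters was not tested.

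DPPA5 lies in the RefSeq gene order between KHDC3L and KHDC1, with OOEP and KHDC1L next to these, and the group could be read together. KHDC3L, a member of the subcortical maternal complex of the oocyte, was 0 to 47.8 RPKM in all 25 cells before the blastocyst, and 4269 to 7464 in the hatched cells of letter H against 0.368 to 37.6 in those of letter G. OOEP, of the same complex, averaged 1660 RPKM in hatched H cells and 56.0 in G cells. KHDC1, the neighbour on the other side, had no such relation to DPPA5 (r = -0.06 over 95 cells), and KHDC1L had 0.30. For DPPA3 the annotated neighbour GDF3 had r = 0.34 and NANOG, 3 genes away, 0.47.

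Of the oocyte and KH-domain list, 3 of 3 measured genes were past 2-fold higher in hatched H than in hatched G cells (KHDC3L 9.86, OOEP 4.86 and KHDC1L 1.73; median 4.86, against -0.06 over all genes, of which 20.9% were higher and 24.1% lower). In letter H from early morula to early blastocyst, 3 of 5 were higher (KHDC3L 6.86, OOEP 2.63 and KHDC1L 1.61) and 2 lower, among them TLE6 (-2.07), another member of that complex, with a median of 1.61 against -0.58 over all genes, of which 21.4% were higher and 41% lower. In the outer against inner middle blastocyst cells of letter B, 3 of 4 were lower (KHDC3L -5.14, OOEP -4.52 and TLE6 -3.22; median -3.87), against 24.7% lower and a median of 0.33 over all genes. In the inner cells of letter B from the 16-cell stage to the middle blastocyst, 3 of 5 were higher (KHDC3L 9.76 and TLE6 1.53 among them) and 2 lower (KHDC1 -5.66 and KHDC1L -2.08), against 25.8% and 46.3% of all genes.

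Of the naive and core pluripotency list, 8 of 12 measured genes were higher and 3 lower in hatched H than hatched G cells (POU5F1 9.80, NANOG 8.75, GDF3 5.73 and TBX3 -5.64; median 3.44), against the 20.9% and 24.1% of all genes. NANOG, SOX2, GDF3, NODAL, TDGF1, FGF4 and PRDM14 of this list are also among the epiblast markers. Counts between hatched H and G cells thus partly restate the cluster names. In letter G from late to hatched blastocyst 1 was higher and 8 were lower (POU5F1 -9.71, NANOG -7.34, SOX2 -5.11 and GDF3 -5.10; median -2.50 against 0.28 over all genes, of which 26.6% were higher and 16.2% lower). POU5F1 did not share the low early levels of DPPA5: it was 954.7 to 10064 RPKM in the 25 cells before the blastocyst. Outer against inner middle blastocyst cells gave 2 higher and 8 lower of 12 (FGF4 -6.52, GDF3 -5.66, PRDM14 -5.65 and NODAL -5.57; median -1.69), against 36.3% higher, 24.7% lower and a median of 0.33 over all genes.

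Genes of the first cleavages form the background for DPPA2. In letter B from the 16-cell stage to the middle blastocyst, 0 of 6 measured genes were higher and 6 were lower in inner cells (ARGFX -4.76, DUXA -4.63, ZNF280A -4.49 and KLF17 -3.48; median -3.98 against -0.75 over all genes) and in outer cells (ARGFX -5.19, KLF17 -5.10, ZNF280A -4.77 and DUXA -4.19), against 46.3% of all genes lower inside and 40.3% outside. DPPA2 was higher in both. Between letters of the middle blastocyst, 3 of 4 were higher in H than in G (DPRX 9.48, ARGFX 5.05 and ZNF280A 1.91), the direction of DPPA2, against 25.6% of all genes. The list holds 13 genes, of which 9 are in the table, and ARGFX and KLF17 are also among the epiblast markers.

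Of the DNA methylation genes, the background for DPPA3, UHRF1 and DNMT1 were low in most groups, while DNMT3L and DNMT3B reached group means of 1722 and 835.8 RPKM. Group means of UHRF1 ran from 0.0111 RPKM in inner early morula cells to 26.9 ± 46.9 (SD over cells) in the 5 outer middle blastocyst cells, among them its highest cell at 110 RPKM. In the inner middle blastocyst cells of letter B, where DPPA3 averaged 4.18 RPKM, UHRF1 averaged 2.62 RPKM, and in the hatched blastocyst it averaged 8.28 RPKM in H and 5.41 in G cells. DNMT1 averaged 23.5 RPKM in outer 16-cell cells and 0.0168 in outer middle blastocyst cells. Between hatched H and G cells 2 of 8 measured genes of the list were higher and 3 lower (TET2 -3.54, DNMT3L 2.12, TDG -1.72 and UHRF2 -1.62; median 0.13), near the 20.9% and 24.1% of all genes. In the middle blastocyst G against B, 5 of 7 were higher and 1 lower (DNMT3B 4.52, UHRF2 4.49, TDG 3.90 and TET2 3.06; median 3.06 against 1.54 over all genes), where 55.1% of all genes were higher and 27% lower.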

How the data were processed

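RNA of 95 single cells was amplified as polyadenylated cDNA and sequenced in single-end 100-base reads, per the labels' protocols. The authors deposited a single table of RPKM values for 16049 genes; the file does not name the unit, which was read from the values. The submitters' processing notes name FastQC, TopHat2 2.1.0, HTSeq and DESeq2, with no role; genome build and annotation are not given in the sources used here. All value columns matched a sample. Of the symbols, 14282 are in the RefSeq table T2T-MMU8v2.0, used for names and gene order.

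Ratios are of mean RPKM + 1, called at 2-fold among genes with a mean of 5 RPKM or more in either group, with no p-value (Python 3.11.15, pandas 2.3.3, scipy 1.17.1). Blastocyst cells were clustered by Ward linkage on 10 principal components of log2(RPKM + 1). Code was tested on simulated data. Genes of each list past 2-fold were named by largest ratio, at most 4 per list and comparison, and 5 genes most like each member. The members, lists and marker sets were chosen with earlier results of these data known. Because the table had no counts or replicates, count tests were not used. Alternatives were other pseudocounts, scalings, averages, filters, cluster numbers and leaving out cells.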

Additional observations from a re-analysis of the deposited data

Results flagged for a closer look

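The groups of stage, position and letter with 4 to 10 cells were read for each of the 3 genes, 39 sets of values in all. In 4 of these sets a single cell stood far from the others, by the gap to its nearest cell over the range of the set. The limit used gives about 1 in 20 by chance only for normally distributed values. RPKM over single cells need not be so distributed, and the chance rate here is not known. DPPA2 in late blastocyst cell H-14 was 318.6 RPKM against 581.2 to 606.5 in the other 3 cells of letter H. DPPA2 in hatched cell G-15 was 10.1 RPKM (231 reads) against 0.0484 to 0.577 in the other 8 cells of letter G. DPPA5 in hatched cell G-16 was 7.57 RPKM (162 reads) against 0.567 to 2.41. DPPA2 in hatched cell H-05 was 225.6 RPKM against 386.3 to 662.0 in the other cells of letter H, and it passed narrowly (0.499 against a limit of 0.493).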

How the results depend on the processing

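No paired analysis was possible because no result comes from a test and the title numbers do not tie cells across groups. Across the 66 ratios of position, stage within a letter and letter within a stage, 379 of 411 values under another setting moved by less than the spread between cells, 29 moved by more and 3 reversed. Of 58 ratios past 2-fold, clusters and pooled letters included, 20 fell within 2-fold or turned under at least 1 setting, 12 of them under median-of-ratios scaling. Leaving out 1 cell is not counted there. It also ended the call of DPPA2 in outer letter B cells (1.48 to 0.97), which is not among the 20. Cells are not replicates, the letters are confounded with stage, and a depth of 1 read (0.0297 to 0.278 RPKM) limits the low values. Median-of-ratios scaling moved the median ratio of all genes by over 0.1 in 30 of 33 comparisons, by -1.78 to 1.99, and values under it are read against that shift. The cause of the other moves was not tested.

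Under median-of-ratios scaling, in letter H the ratios became 1.26 for DPPA3 (early blastocyst against early morula), 0.84 for DPPA2 (middle against early blastocyst), and -1.09 for DPPA2 and 0.26 for DPPA3 (late against middle). In letter B, middle blastocyst against 16-cell, outer DPPA2 was 3.45 and DPPA3 -0.67, and inner DPPA2 was 3.90, DPPA3 -2.01 and DPPA5 4.29. Between letters of the early blastocyst DPPA2 was -2.56 (G against A) and -2.31 (H against A), and DPPA5 reversed to -0.78 (G against A). Between letters of the middle blastocyst, G against B gave -2.08 for DPPA2, 5.02 for DPPA3 and -3.06 for DPPA5, and H against B 0.93, 6.20 and -2.27. DPPA5 in the cluster of 20 cells reversed to 0.19, and pooled DPPA2, late against early morula, to 1.17.

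With equal totals, DPPA3 was 0.13 (letter H, early blastocyst against early morula) and, H against G in the early blastocyst, DPPA2 was 0.065 and DPPA3 0.46. By the mean of log2 values DPPA5 reversed to -1.97 (letter G, late against middle blastocyst) and -1.62 (pooled letters). By medians the first was -5.05, DPPA5 was -2.002 in letter G (hatched against late) and 6.80 in late H against G, and DPPA2 was 8.75 in hatched H against G and -7.85 in the cluster of 9 cells. With a pseudocount of 10, DPPA3 was -2.09 (letter B, inner), 5.34 (G against B) and 6.01 (H against B), and in hatched H against G DPPA2 was 5.52 and DPPA5 7.66. With the 9 conflicting cells counted as hatched, DPPA2 was 5.82 there.

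Leaving out 1 cell, the ratios ran from -2.23 to 0.74 (DPPA5, 16-cell outer against inner), -0.046 to 0.89 (DPPA2, letter H, middle against early blastocyst), 0.97 to 3.16 and 1.47 to 3.69 (DPPA2, letter B, outer and inner), 2.18 to 4.63 (DPPA5, letter B, inner), -0.055 to 0.88 (DPPA2, early blastocyst H against G) and 7.66 to 8.66 (DPPA2, hatched H against G).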
